A study of Mus musculus with 24 samples.

Results

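TCRα clonotypes of middle size were followed between the bilateral tumors of 12 mice. Sequences that shared the V segment, the J segment and the translated CDR3 formed 1 clonotype, and its share was its part of the counts retained in a tumor. A clonotype was a member when the larger of its shares over the 2 tumors of a mouse was at least 0.1% and below 1%. Of 40033 TCRα clonotypes, counted per mouse, 1519 were members, 232 were larger and 38282 were smaller. The 1519 members were 1343 different clonotypes, since some were members in several mice. Because the members were chosen by these measured shares, the number of members and the size of their larger share are descriptions without a test.

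The T cell receptor α chain is made when a V and a J segment are joined in a developing thymocyte, with bases lost and added at the joint. The joint lies in the CDR3, the loop that meets the peptide, so that cells of one clone carry the same CDR3. Clones grow when their cells meet antigen, while some joints form so often that they arise in many animals, and invariant natural killer T (iNKT) cells and mucosal-associated invariant T (MAIT) cells each carry a nearly fixed α chain.

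All mice were female BALB/c animals with tumors of CT26.CL25, a subline of the CT26 colon carcinoma, grown from cells injected under the skin of both flanks. In the 3 time-matched mice (6, 12 and 14) both tumors were taken 13 days after inoculation. In the 3 time-separated mice (4, 17 and 19), which received no decitabine, 1 tumor was removed by surgery and the remaining tumor was taken 11 days later. The same schedule was used in 3 mice of the low-dose group (DAC low; 3, 11 and 20) and 3 of the high-dose group (DAC high; 7, 10 and 16), which received decitabine, an inhibitor of DNA methylation, into the peritoneum at 0.5 or 2 mg/kg for 5 days. Dosing began 3 days after the operation and ended 4 days before the last harvest, so the tumor removed first had not been exposed. The study's methods name carprofen and a buprenorphine analgesic at the operation. The interval, tumor age at harvest, surgery and analgesics cannot be told apart where these 9 mice are set against the time-matched mice. In the mice of the DAC groups, decitabine adds to these. RNA of whole tumors was used without sorting T cells, and a larger number of T cells and more receptor RNA per cell cannot be told apart in a share. Tumors are numbered 1 and 2 in the labels, which do not say which of them was taken first, so no direction in time was assigned.

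The CDR3 sequences that were members in the most mice are shown because they recur between animals. All are written 5′ to 3′ from the conserved cysteine codon that opens the CDR3. The first set belongs to the pair of TRAV7-2 with TRAJ40, and its capitals mark the 3 codons that varied between its members.

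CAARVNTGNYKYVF, member with this sequence in 9 mice: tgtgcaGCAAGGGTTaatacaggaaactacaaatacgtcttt

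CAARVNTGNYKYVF, member with this sequence in 1 mouse: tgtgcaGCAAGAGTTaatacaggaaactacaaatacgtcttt

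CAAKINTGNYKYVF, 6 mice: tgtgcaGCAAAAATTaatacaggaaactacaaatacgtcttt

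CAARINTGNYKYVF, 6 mice: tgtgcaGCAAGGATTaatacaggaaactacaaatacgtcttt

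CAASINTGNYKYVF, 5 mice: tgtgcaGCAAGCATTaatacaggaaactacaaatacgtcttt

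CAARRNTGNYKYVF, 2 mice: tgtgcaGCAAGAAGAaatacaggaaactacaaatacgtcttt

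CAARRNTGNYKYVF, another 2 mice: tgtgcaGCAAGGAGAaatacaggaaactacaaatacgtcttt

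In the second set, capitals mark bases that differed from the version of the mouse with the largest share among those in which the clonotype was a member. The number of mice counts every mouse in which the version was the main one of the clonotype, whatever its share.

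TRAV11 with TRAJ18, the iNKT chain, 11 mice: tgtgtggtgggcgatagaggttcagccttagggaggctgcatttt

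TRAV11 with TRAJ18, 1 mouse: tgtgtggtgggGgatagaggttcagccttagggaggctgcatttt

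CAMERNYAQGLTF of TRAV13-1 and TRAJ26, 4 mice: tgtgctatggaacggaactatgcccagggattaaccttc

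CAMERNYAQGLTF of TRAV13-1 and TRAJ26, 6 mice: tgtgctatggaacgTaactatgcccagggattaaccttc

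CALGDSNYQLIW of TRAV6-6 and TRAJ33, 9 mice: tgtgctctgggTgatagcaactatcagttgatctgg

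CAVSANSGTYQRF of TRAV3-3 and TRAJ13, 10 mice: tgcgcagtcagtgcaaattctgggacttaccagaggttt

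The third set is the largest member found in 1 tumor only, shown for 5 of the mice so that every group is represented. Capitals mark bases between the stretches that most sequences of that V segment and of that J segment shared in these files. Without a germline reference, added bases and alleles of a segment cannot be told apart there.

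TRAV16 with TRAJ58, time-matched mouse 14: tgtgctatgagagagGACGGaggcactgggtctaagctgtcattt

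TRAV16D/DV11 with TRAJ40, time-separated mouse 4: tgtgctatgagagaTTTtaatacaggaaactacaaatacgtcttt

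TRAV7-4 with TRAJ37, time-separated mouse 19: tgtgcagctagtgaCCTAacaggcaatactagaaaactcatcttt

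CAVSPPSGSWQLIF of TRAV7-3 and TRAJ22, DAC low mouse 20: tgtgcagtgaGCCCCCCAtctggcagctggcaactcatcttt

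TRAV6-6 with TRAJ53, DAC high mouse 10: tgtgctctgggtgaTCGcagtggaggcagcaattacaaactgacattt

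The 24 TCRα libraries, 1 per tumor, held between 26623 and 846655 retained counts (median 159256) and between 515 and 3475 clonotypes. Sequences with a stop codon, which were left out, made up 8.99% to 27.7% of the counts. The smallest library was tumor 2 of DAC high mouse 7, in which 3 counts were 0.0113% of the total, whereas in tumor 2 of time-matched mouse 12, the largest, they were 0.000354%. Members took up between 8.36% and 40.4% of the counts of a tumor, with a median of 19.1%. The time-matched mice had 134, 27 and 82 members (mice 6, 12 and 14), the time-separated mice 169, 142 and 207 (mice 4, 17 and 19), the DAC low mice 157, 130 and 152 (mice 3, 11 and 20) and the DAC high mice 108, 105 and 106 (mice 7, 10 and 16). Mouse 12 had the fewest members, and its clonotypes of 1% or more held 80.7% and 81.9% of the counts of its tumors. Of all members, 790 had a larger share below 0.2% and 167 one of 0.5% or more. At the lower limit, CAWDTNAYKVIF of TRAV7-3 and TRAJ30 lay just inside with 0.1000% in mouse 14 and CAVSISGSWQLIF of TRAV7-3 and TRAJ22 just outside with 0.09999% in mouse 7. At the upper limit, the TRAV7-4 and TRAJ37 clonotype of mouse 19 shown above lay just inside with 0.996% and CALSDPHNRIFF of TRAV12N-2 and TRAJ31 in mouse 4 just outside with 1.02%.

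**Figure D1:**
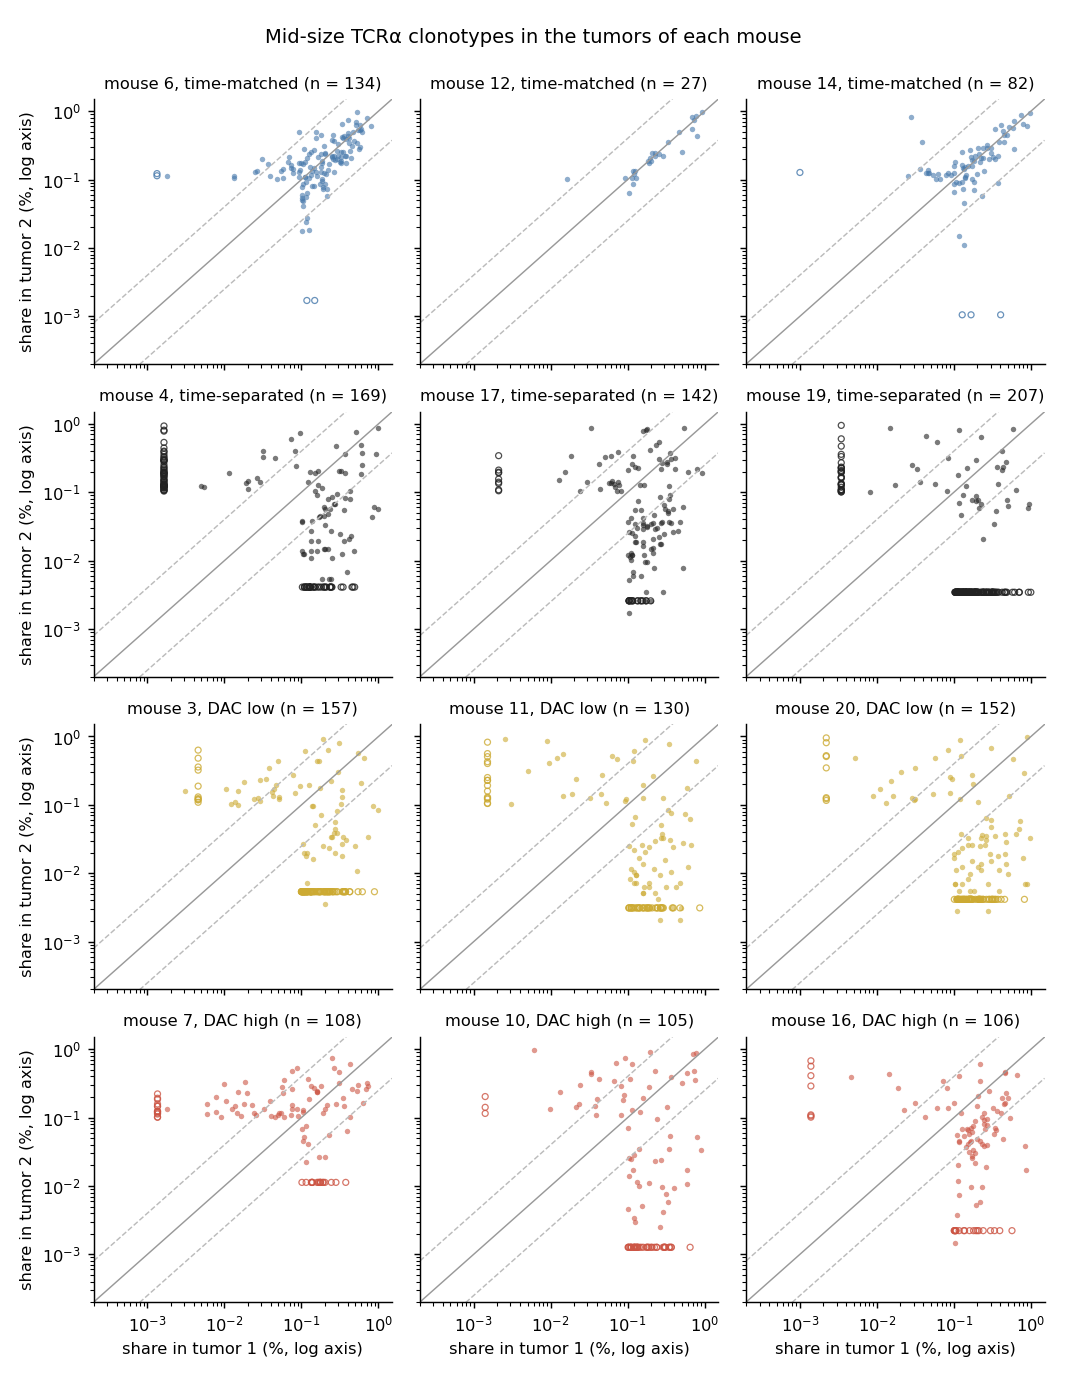
Share of every member in tumor 1 (x axis) and tumor 2 (y axis) of its mouse, in percent on log axes, with 1 panel per mouse. Filled points were found in both tumors, and open points in 1 tumor only, drawn at 3 counts of the other library. The solid line marks equal shares and the dashed lines a 4-fold difference. The 3 time-matched panels hold 8 open points in all and the 9 other panels 577.

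Nearly all members of the time-matched mice were found in both tumors, while many members of the other mice were found in 1 tumor only. In the time-matched mice 6, 12 and 14, 97.0%, 100% and 95.1% of the members were found in both tumors. In the time-separated mice 4, 17 and 19 the values were 48.5%, 82.4% and 19.8%, in the DAC low mice 3, 11 and 20 they were 43.9%, 60.8% and 59.2%, and in the DAC high mice 7, 10 and 16 they were 71.3%, 61.0% and 75.5%. No mouse of the 9 reached the lowest time-matched value, and mouse 19 lay lowest. Over all clonotypes of any size, most were found in 1 tumor only, with 70.7% in the time-matched, 86.4% in the time-separated, 86.0% in the DAC low and 83.3% in the DAC high mice. The members were thus found in 1 tumor only less often than clonotypes in general in every group, which the rule itself favours, since a member has a large number of counts in at least 1 library.

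The mean was 97.4% ± 2.46 in the time-matched mice (SD, n = 3) and 58.0% ± 18.8 in the 9 mice with an interval between harvests (SD, n = 9), a difference of −39.3 percentage points. An exact permutation test of the mean of 1 value per mouse gave p = 0.00909 and an adjusted p of 0.0545 over the 18 tests of change, so the difference did not pass the threshold of 0.05. The adjusted p was 0.0273 with libraries thinned to 26623 counts, with a difference of −41.2 percentage points, and 0.0303 when mouse 16, 17 or 19 was left out (−41.5, −42.4 and −34.6 percentage points). It rose to 0.164 for members of 0.2% or more (−30.7 percentage points), to 0.121 without mouse 4 and to 0.218 without any 1 time-matched mouse. Against the 3 undosed time-separated mice alone (50.2% ± 31.3, n = 3) the difference was −47.1 percentage points with p = 0.1 (exact permutation test, adjusted p = 0.2), the smallest p that 3 against 3 mice can give.

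The members found in 1 tumor only could be large. The TRAV16 and TRAJ58 clonotype of time-matched mouse 14 had 1211 counts in tumor 1, or 0.404% (95% Clopper-Pearson interval 0.381% to 0.427%), and 0 in tumor 2, which allows a share of up to 0.00105%. In time-separated mouse 4, the TRAV16D/DV11 and TRAJ40 clonotype had 0 counts in tumor 1 (up to 0.00164%) and 681 in tumor 2, or 0.930% (0.862% to 1.00%), so that it was at least 567-fold higher in tumor 2. In mouse 19, the TRAV7-4 and TRAJ37 clonotype had 868 counts in tumor 1, or 0.996% (0.931% to 1.06%), and 0 in tumor 2 (up to 0.00344%), at least 289-fold lower. In DAC low mouse 20, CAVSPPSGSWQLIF had 0 and 689 counts, the latter 0.954% (0.884% to 1.03%), at least 434-fold higher in tumor 2. In DAC high mouse 10, the TRAV6-6 and TRAJ53 clonotype had 1374 and 0 counts, the former 0.646% (0.612% to 0.681%), at least 510-fold lower in tumor 2 (up to 0.00127%). Over the 11 mice with such a member, mouse 12 having none, the bounds ran from 33.3-fold in mouse 7, which had the shallowest library, to 567-fold. Bounds on the fold set the absent clonotype to 3 counts of its library and the other share to its measured value. They are therefore not limits of a 95% interval. The Clopper-Pearson upper limit for a count of 0 was higher than 3 counts, with 0.00129% in mouse 14 and 0.00202% in mouse 4. These intervals and limits cover counting error only. The study's methods name a step based on unique molecular identifiers but call these counts reads, and reads of 1 molecule are not independent.

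Both tumors held the clonotype at middle size mostly in the time-matched mice. The smaller share was also at least 0.1% for 156 of 243 members there (64.2%), for 60 of 518 in the time-separated mice (11.6%), for 37 of 439 in the DAC low mice (8.43%) and for 66 of 319 in the DAC high mice (20.7%). A smaller share of 0.01% to below 0.1% was the class with the narrowest spread between groups, with 32.1%, 30.7%, 32.6% and 40.1% in the same order.

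The size of the change was measured as the ratio of a member's shares, with a smaller share under 3 counts set to 3 counts of its library. In the time-matched mice 6, 12 and 14, 11.9%, 3.70% and 13.4% of the members changed more than 4-fold. The values were 80.5%, 69.7% and 87.9% in the time-separated mice 4, 17 and 19, 81.5%, 87.7% and 89.5% in the DAC low mice 3, 11 and 20, and 57.4%, 79.0% and 56.6% in the DAC high mice 7, 10 and 16. Every mouse with an interval between harvests lay above every time-matched mouse. Among all clonotypes of 0.05% or more, larger ones included, 20.8% changed more than 4-fold in the time-matched and 83.8% in the time-separated mice. The percentage was 85.7% in the DAC low and 70.1% in the DAC high mice. The members' values lay close to these in the groups with an interval, but the pooled percentages include the members themselves. Between 0.05% and below 0.1%, 23.4% ± 20.3 of the clonotypes in the time-matched and 85.0% ± 7.41 in the 9 other mice changed more than 4-fold. Of the clonotypes of 1% or more, 2.78% ± 4.81 in the time-matched and 54.3% ± 15.7 in the 9 other mice changed more than 4-fold, and 100% and 92.1% ± 10.0 were found in both tumors.

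The mean was 9.69% ± 5.23 in the time-matched mice (SD, n = 3) and 76.7% ± 12.6 in the 9 others (SD, n = 9), a difference of 67.0 percentage points with p = 0.00455, the smallest the exact permutation test can give, and an adjusted p of 0.0409. With each mouse's log2 ratios centred on the median of its members the difference was 41.5 percentage points and did not pass (exact test, adjusted p = 0.0818). The median absolute log2 ratio of the members was 0.48 ± 0.30 in the time-matched mice (n = 3) and 4.11 ± 1.22 in the 9 others (n = 9), a difference of 3.63 on the log2 scale (exact permutation test, p = 0.00455, adjusted p = 0.0409). In mice 4, 19 and 3 the median ratio was limited by the floor of 3 counts and so by depth. There, 51.5%, 80.2% and 56.1% of the members were found in 1 tumor only. With libraries thinned to 26623 counts the median ratio was 3.52, 3.72 and 3.40 in place of 4.86, 5.39 and 4.33. Thinning also lowered it in mice 11, 20 and 10, to 3.69, 3.70 and 3.41 from 5.17, 4.80 and 4.84. In mice 17, 7 and 16 it was 2.79, 2.48 and 2.39 after thinning and 2.76, 2.47 and 2.41 before. With any 1 of the time-matched mice 6, 12 and 14 left out, neither difference could pass after adjustment, with 64.0 to 68.8 percentage points and 3.47 to 3.77 on the log2 scale and an adjusted p of 0.164. Against the 3 undosed time-separated mice alone the differences were 69.7 percentage points and 3.86 on the log2 scale, each with p = 0.1 (exact permutation test, adjusted p = 0.2).

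**Figure D2:**
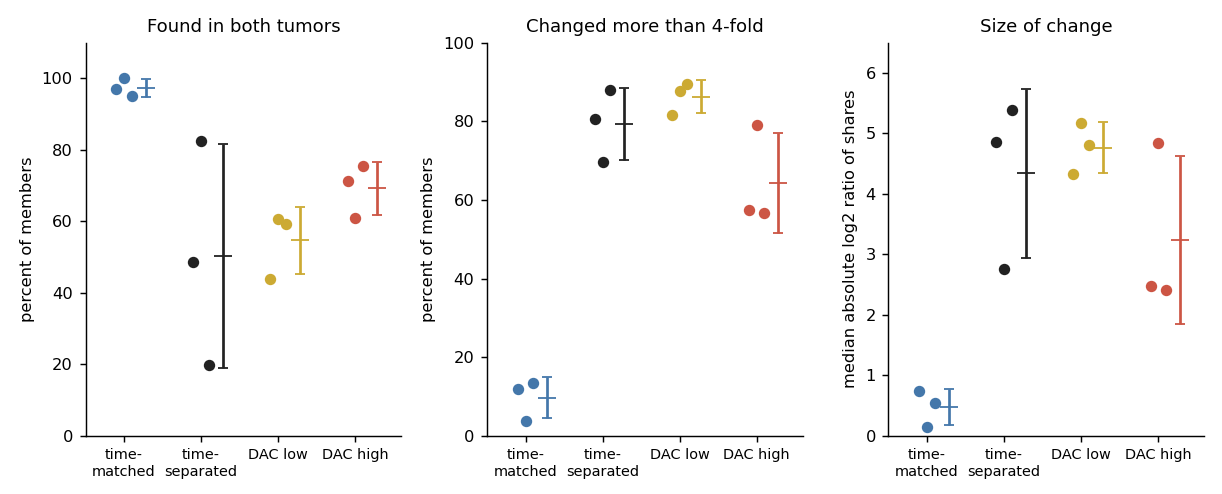
Percent of members found in both tumors, percent changed more than 4-fold and median absolute log2 ratio of shares (y axes), by group (x axis). Each point is 1 mouse, and the bar gives the mean and SD of the 3 mice of a group. Time-matched mice lie at 95.1% or more in the first panel and at 13.4% or less in the second, and none of the other mice reaches into either range.

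The largest members that were present in both tumors and changed more than 4-fold are given as examples, chosen for their change, and their folds do not compare the groups. In time-matched mouse 6 this was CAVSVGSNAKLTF of TRAV3-1 and TRAJ42, with 0.0922% in tumor 1 and 0.493% in tumor 2, a 5.35-fold difference. In time-matched mouse 14 it was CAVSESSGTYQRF of TRAV3-3 and TRAJ13, with 0.0280% and 0.813%, a 29.0-fold difference. In mouse 12 a single member, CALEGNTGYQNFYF of TRAV17 and TRAJ49, changed more than 4-fold, from 0.0163% to 0.103%.

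In time-separated mouse 4, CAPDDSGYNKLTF of TRAV3-1 and TRAJ11 had 0.985% and 0.0560%, a 17.6-fold difference, and was the largest member of that mouse. In DAC low mouse 11, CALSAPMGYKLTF of TRAV12-1 and TRAJ9 had 5 counts (0.00252%) in tumor 1 and 879 (0.912%) in tumor 2, a 362-fold difference. In DAC high mouse 10, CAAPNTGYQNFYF of TRAV7-4 and TRAJ49 had 13 counts (0.00611%) and 2290 (0.968%), a 158-fold difference. The largest members of mice 17, 3, 20 and 16 changed 4.90-fold, 11.7-fold, 29.4-fold and 50.7-fold, and that of mouse 7 changed 3.08-fold. The largest member of each of the 3 time-matched mice differed by less than 2-fold between its tumors, with 1.88-fold for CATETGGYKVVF of TRAV8N-2 and TRAJ12 in mouse 6, 1.05-fold for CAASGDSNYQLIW of TRAV14-1 and TRAJ33 in mouse 12 and 1.03-fold for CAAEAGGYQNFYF of TRAV4-2 and TRAJ49 in mouse 14.

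Most members of the mice with an interval were larger in the tumor labelled 1. The percentage larger in tumor 2 was 42.6%, 30.3% and 21.3% in the time-separated mice 4, 17 and 19, 27.4%, 30.0% and 21.1% in the DAC low mice 3, 11 and 20, and 61.1%, 30.5% and 20.8% in the DAC high mice 7, 10 and 16. It was 45.5%, 51.9% and 51.2% in the time-matched mice 6, 12 and 14. Mouse 7 was the single mouse of the 9 above 50%, and the mean of the 9 was 31.7% ± 13.0 (SD). No test was made, because the members were chosen by their larger share, and the tumor with more clonotypes of middle size supplies more members and is the larger one for them. Of the 577 members found in 1 tumor only in these mice, 434 were found in tumor 1 and 143 in tumor 2.

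Other measures moved the same way. The share held by clonotypes of 1% or more was higher in tumor 2 in 9 of 9 of these mice (44.9% ± 13.3 in tumor 1 and 71.0% ± 7.86 in tumor 2), the share of members was lower in tumor 2 in 8 of 9 (27.3% ± 7.22 and 15.9% ± 3.50), and tumor 2 had fewer retained counts in 7 of 9 and fewer clonotypes in 9 of 9. The part of these differences in the direction of change was not tested. When each mouse's log2 ratios were centred on the median of its members, the percent changed more than 4-fold fell to between 32.2% and 76.2% in the 9 mice and stayed at 11.9%, 3.70% and 13.4% in the time-matched mice.

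**Figure D3:**
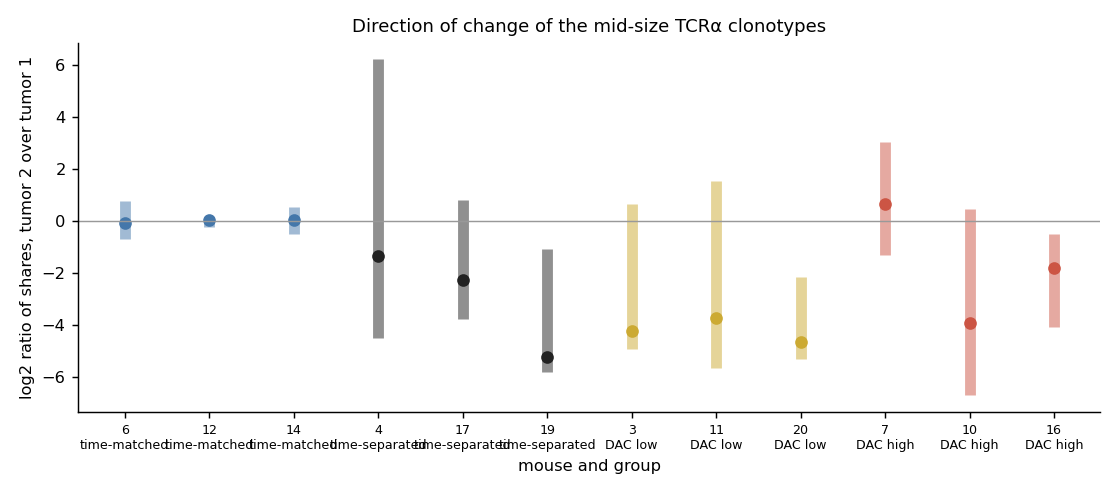
Log2 ratio of a member's share in tumor 2 over tumor 1 (y axis) by mouse and group (x axis). Points are medians over the members of a mouse and bars run from the lower to the upper quartile. The time-matched medians lie between −0.08 and 0.04, and 8 of the 9 other medians lie below 0, down to −5.24 in mouse 19, a value set by the floor of 3 counts.

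The DAC high and DAC low mice did not overlap in percent changed more than 4-fold or in percent found in both tumors, and the undosed mice overlapped with both groups in every measure. The percent changed more than 4-fold was 79.4% ± 9.15 in the undosed time-separated mice, 86.2% ± 4.17 in the DAC low mice and 64.4% ± 12.7 in the DAC high mice (SD, n = 3 each). The DAC high mice lay below the DAC low mice without overlap, by 21.9 percentage points, with p = 0.1 (exact permutation test, adjusted p = 0.2), the smallest p that 3 against 3 can give. In the centred ratios this difference turned, with the DAC high mice 16.3 percentage points above the DAC low mice. A test of the 3 groups together gave p = 0.0536 (exact permutation test, adjusted p = 0.2). The percent found in both tumors was 50.2% ± 31.3, 54.6% ± 9.29 and 69.2% ± 7.47 in the same order (n = 3 each, exact permutation test of the 3 groups, p = 0.518, adjusted p = 0.583), with the DAC high mice 14.6 percentage points above the DAC low mice (exact permutation test, p = 0.1, adjusted p = 0.2), and the median absolute log2 ratio was 4.34 ± 1.39, 4.76 ± 0.42 and 3.24 ± 1.39 (p = 0.371, adjusted p = 0.478, exact permutation test). Retained counts ranged from 26623 to 236622 in the DAC high libraries and from 55862 to 198499 in the DAC low libraries, and with depth thinned to 26623 counts the percent changed more than 4-fold was 56.0%, 77.8% and 57.6% in the DAC high mice and 82.1%, 88.3% and 88.9% in the DAC low mice. These values moved little from those at full depth.

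The V segments of the members were close to those of the smaller clonotypes of the same mice. The members used 67 V and 42 J segments, and TRAV7-4 was the most used V with 123 members (8.10%), followed by TRAV7-2 with 91 (5.99%) and TRAV3-3 with 84 (5.53%). The TRAV7 family made up 22.6% ± 5.29 of the members of a mouse, against 20.6% ± 5.21 of the clonotypes below 0.1% (SD, n = 12). None of the 16 TRAV families tested differed after adjustment (0% called, two-sided exact permutation test that flips the sign of whole mice, here called the sign-flip test, 2 families at an unadjusted p under 0.05). TRAV6 came nearest, with 9.60% ± 1.89 of the members and 11.7% ± 2.37 of the smaller clonotypes, lower in 10 of 12 mice (difference −2.06 percentage points, exact sign-flip test, p = 0.00977, adjusted p = 0.156). The other families with the largest differences were TRAV9 with −2.64 percentage points, TRAV7 with 1.95, TRAV3 with 1.46 and TRAV12 with −1.21, each with an adjusted p of 0.316 in the exact test. TRAV6 passed with a minimum of 5 counts (−3.25 percentage points, exact test, adjusted p = 0.0166) for members below 0.5% (−1.91, 0.0469), and when mouse 12 was left out.

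J segments gave the same picture, with 1 segment standing out in size. None of the 34 tested passed (0% called, exact sign-flip test, 3 segments at an unadjusted p under 0.05). TRAJ40 made up 8.85% ± 5.04 of the members and 5.70% ± 1.80 of the smaller clonotypes, higher in 10 of 12 mice by a mean of 3.15 percentage points (exact sign-flip test, p = 0.0278, adjusted p = 0.315). In the same exact test, TRAJ30 differed by −1.40 percentage points (adjusted p = 0.476), TRAJ15 by 0.874 (0.795, −0.217 without mouse 12, where it made up 25.9% of 27 members, and higher in 5 of 12 mice), TRAJ21 by −0.823 (0.315) and TRAJ17 by −0.699 (0.678). Against clonotypes of 0.01% to below 0.1% in place of all smaller ones, 3 TRAV families and 2 TRAJ segments passed the exact test, among them TRAV7 (3.85 percentage points, adjusted p = 0.0194), TRAV6 (−2.43, 0.0194) and TRAJ21 (−1.04, 0.0242).

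Between the time-matched and the 9 other mice, no TRAV family and no TRAJ segment of the members differed after adjustment (0% called of 16 and of 34, exact permutation test, 0 and 4 at an unadjusted p under 0.05). TRAJ52, named like the next segments after its values were seen, came nearest, with 0.498% ± 0.862 of the members in the time-matched mice (n = 3) and 2.43% ± 0.903 in the others (n = 9, exact permutation test, p = 0.00909, adjusted p = 0.309). The next were TRAJ57, with 1.65% and 4.38% of the members, and TRAJ33, with 6.08% and 2.40%, both with an adjusted p of 0.309.

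**Figure D4:**
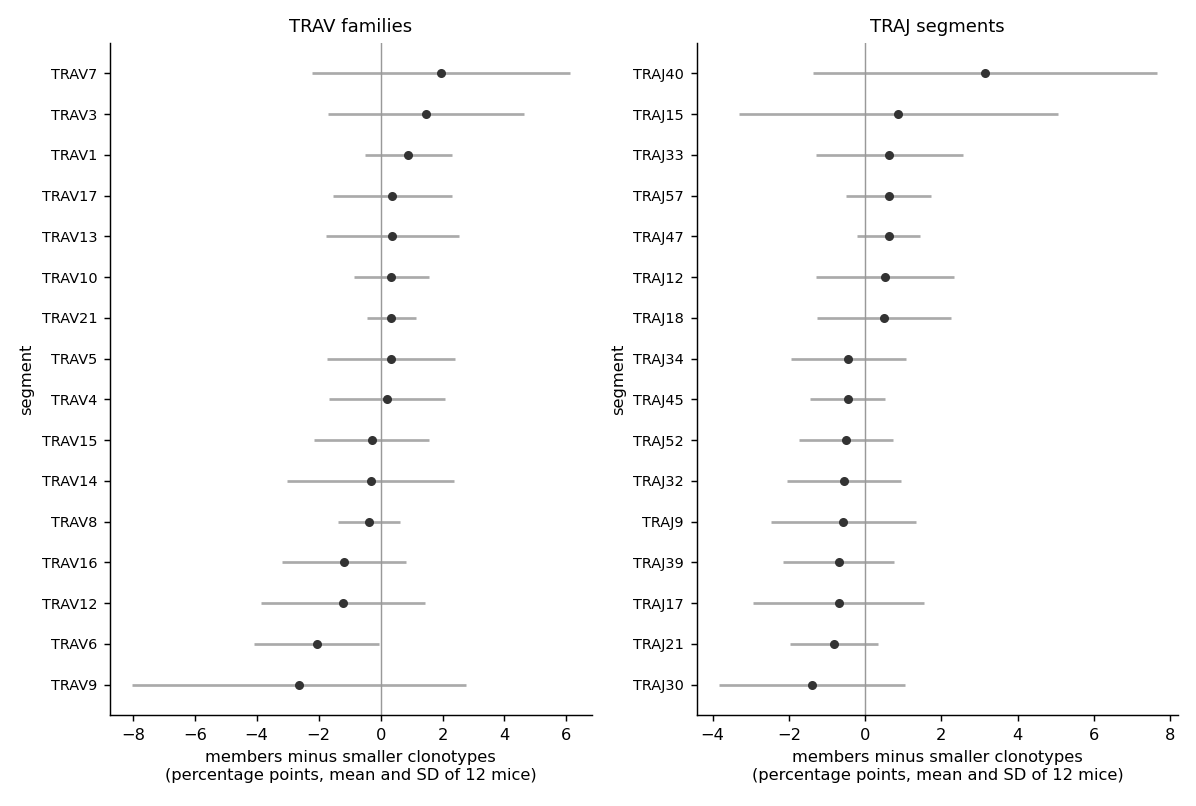
Use of TRAV families and TRAJ segments (y axes) as the percent of members minus the percent of smaller clonotypes in percentage points (x axes). Points are means and bars the SD over 12 mice, for all 16 families tested and for the 16 TRAJ segments with the largest differences of 34. TRAJ40, at 3.15, lies farthest right, and the SD bars of nearly all segments cross 0.

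The larger use of TRAJ40 lay in 1 pairing of segments, which was looked at after its values were seen and is given without a test. TRAV7-2 with TRAJ40 was the most frequent V and J pair, with 67 members in 11 of 12 mice, and the next pair, TRAV13-1 with TRAJ26, had 15 in 8 mice. It made up 4.19% ± 2.56 of the members of a mouse and 1.46% ± 0.514 of the smaller clonotypes (SD, n = 12), and was higher among the members in 11 mice. Mouse 12, with 27 members in all, had none. With the pair left out of both, TRAJ40 made up 4.91% ± 3.30 of the members and 4.31% ± 1.77 of the smaller clonotypes, higher in 6 of 12 mice, and the TRAV7 family differed by −0.348 percentage points.

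The 67 members of the pair had 20 different CDR3s from 37 different main nucleotide sequences, and all 67 had 14 residues, began with CA and ended with NTGNYKYVF, so that they varied in 3 positions only. Of the 540 smaller clonotypes of the pair, 529 had the same length and 241 also the same ending. Start and ending were taken from the 67 members themselves and fit all of them by definition. These counts therefore do not compare members with smaller clonotypes. In the sequences shown first, the varying codons encode A, then R, K or S, then V, I or R. The same CDR3 was often written with different codons in different mice, as for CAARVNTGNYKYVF in mouse 4 and for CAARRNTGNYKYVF, whose 6 mice had 4 different sequences as members. No clonotype of this pair reached 1% in any mouse.

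All 14 in the time-matched mice were found in both tumors, and 1 of them changed more than 4-fold. Of the 53 in the 9 other mice, 43 were found in both tumors and 40 changed more than 4-fold, beside 699 and 1000 of all 1276 members of these mice. Found-in-both was thus more frequent among members of the pair, a difference that was not tested. Since a clonotype can pool several nucleotide sequences, it need not mean that the same clone was in both tumors. Their summed share was 2.73% in tumor 1 and 2.20% in tumor 2 of time-matched mouse 6, and 1.07% and 1.28% in mouse 14. Time-separated mouse 4 had 1.18% and 0.310%, mouse 17 had 2.68% and 0.304%, and mouse 19 had 2.73% and 0.497%. DAC low mouse 3 had 3.16% and 0.245%, mouse 11 had 1.13% and 0.0768%, and mouse 20 had 1.34% and 0.0914%. DAC high mouse 7 had 1.31% and 1.56%, mouse 10 had 1.21% and 0.0735%, and mouse 16 had 0.472% and 0.110%. In 8 of the 9 mice the sum was lower in tumor 2, mouse 7 being the exception, as was the share of all members together.

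The iNKT chain was a member in 10 mice, as often as any clonotype, and was found in 12 of 12. It joins TRAV11 to TRAJ18 and recognises glycolipids presented by CD1d. Its shares in tumor 1 and tumor 2 were 0.615% and 0.502% in time-matched mouse 6 and 0.337% and 0.552% in mouse 14, and in mouse 12 it lay just below the limit with 0.0986% and 0.0576%. It was 0.321% and 0.206% in time-separated mouse 4 and 0.325% and 0.279% in mouse 17. In mouse 19 it was above the limit for members, with 1455 counts (1.67%) in tumor 1 and 0 in tumor 2, where 3 counts were 0.00344%. The DAC low mice had 0.335% and 0.129% (mouse 3), 0.278% and 0.0374% (mouse 11) and 0.705% and 0.0443% (mouse 20). The DAC high mice had 0.0874% and 0.530% (mouse 7), 0.593% and 0.0169% (mouse 10) and 0.188% and 0.0895% (mouse 16). Of the 8 mice with an interval in which it was a member, it changed more than 4-fold in 4 and was larger in tumor 1 in 7. Its nucleotide sequence was the same in 11 mice and differed by 1 base in mouse 16.

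MAIT cells, which see metabolites of microbes on MR1, were marked by TRAV1 with TRAJ33, and only 2 such clonotypes reached middle size. They were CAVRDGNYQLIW in mouse 17, and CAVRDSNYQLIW in mouse 19. All TRAV1 and TRAJ33 clonotypes together held 0.164% and 0.0224% in mouse 17 and 0.330% and 0% in mouse 19, with 288 counts in tumor 1. V segments named for the δ chain (TRDV) were used by 25 members (1.65%), the only ones whose V was not a TRAV segment.

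Besides the iNKT chain and the pair of TRAV7-2 with TRAJ40, 4 other clonotypes were among the 10 that were members in the most mice. The last of them, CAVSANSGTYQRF, was tied at 5 mice with 4 clonotypes that are not described, and was taken for its larger summed share. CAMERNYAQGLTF was a member in 8 mice with TRAV13-1 and in 6 with TRAV13D-1, and since these V segments are near-identical copies, the assignment between them is uncertain. Among mice with an interval it was larger in tumor 1 in 7 of 7 with TRAV13-1 and in 5 of 5 with TRAV13D-1. With TRAV13-1, time-separated mouse 4 had shares of 0.204% and 0.0328%, DAC high mouse 16 had 0.435% and 0.0488%, and DAC low mouse 11 had 0.290% and 0 counts in tumor 2. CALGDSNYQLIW of TRAV6-6 and TRAJ33 was a member in 7 mice, found in both tumors in all 7, and its larger share ran from 0.106% to 0.275%.

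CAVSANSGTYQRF of TRAV3-3 and TRAJ13 ran the other way. It was a member in 5 mice, dominant with 1% or more in 4 and smaller in 1, with the same nucleotide sequence in all 10. Its share was higher in tumor 2 in 7 of the 7 mice with an interval in which it was found. As a member it had 0.0287% and 0.248% in mouse 19, 0.00303% (2 counts) and 0.161% in mouse 3, and 0.765% and 0.867% in mouse 10, and above the limit for members it had 0.250% and 1.97% in mouse 17 and 5.08% and 7.69% in mouse 11. In the time-matched mice it was a member with 0.406% and 0.731% in mouse 6 and with 0.290% and 0.224% in mouse 12. A near relative of the same segments, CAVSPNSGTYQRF, was a member in 2 mice with 0.0183% and 0.335% (mouse 17) and 0.188% and 0.924% (mouse 3), and above the limit in mouse 4 with 0.667% and 3.23%. The direction of these clonotypes was noticed after their values were seen, and no test was made of it.

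Members were shared between mice more often than smaller clonotypes. Of the 1519 members, 557 were found at any share in another mouse. Per mouse, 36.5% ± 5.00 of the members (29.6% in mouse 12 to 45.1% in mouse 17) and 17.9% ± 2.76 of the smaller clonotypes were found in another mouse (SD, n = 12), a difference of 18.6 percentage points. It was higher in 12 of 12 mice, with p = 0.000488 in the exact sign-flip test, the smallest p it can give, and an adjusted p of 0.000732. Sharing in which the other mouse had a different main nucleotide sequence was found for 24.8% ± 6.05 of the members and 10.1% ± 1.66 of the smaller clonotypes, higher in 12 of 12 mice by 14.7 percentage points (the same p). With 10 or more counts required in the other mouse, the difference of 18.6 became 21.7 percentage points. That test was added after the data were seen (exact sign-flip test, p = 0.000488, adjusted p = 0.00195 among 4 tests). Over the alternatives that kept all mice, the difference in sharing ran from 12.0 to 34.0 percentage points. Of the 1343 different clonotypes, 91 were members in 2 or more mice, 31 in 3 or more, 17 in 4 or more and 14 in 5 or more. Clonotypes of 1% or more were found in another mouse in 47.9% ± 8.05 of cases (SD, n = 12), above the members in 11 of 12 mice, so frequent sharing was not particular to middle size. The median number of bases outside the stretches shared within a V or a J segment was 3 both for members in 1 mouse and for members in 2 or more mice, with a range of 0 to 29 and of 0 to 12.

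In the 9 mice with an interval, shared members were found in both tumors more often than members seen in no other mouse, by 10.1 percentage points (64.4% ± 16.8 and 54.3% ± 20.6, n = 9). It was above 0 in 7 mice, and the exact sign-flip test gave p = 0.0195 (adjusted p = 0.0391, among 4 tests chosen after the data were seen). Among members made of a single nucleotide sequence it was 7.25 percentage points and above 0 in 6 mice, which did not pass (exact sign-flip test, p = 0.301, adjusted p = 0.387). Shared and unshared members changed more than 4-fold in 74.9% ± 15.1 and 77.5% ± 11.9 of cases (exact sign-flip test, n = 9, p = 0.387, adjusted p = 0.387), a difference below the spread between mice.

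**Figure D5:**
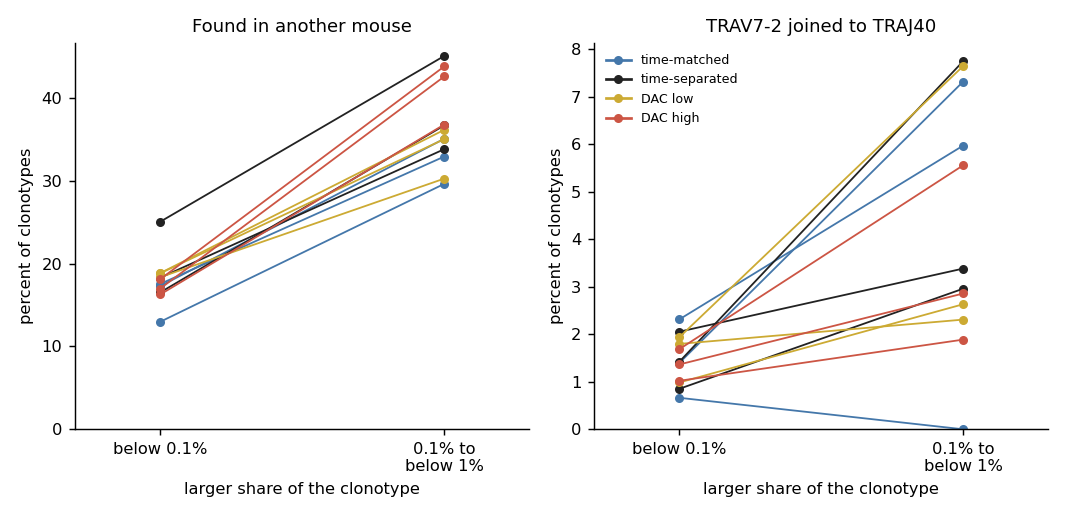
Percent of clonotypes found in another mouse (left y axis) and percent that join TRAV7-2 to TRAJ40 (right y axis), for clonotypes below 0.1% and of 0.1% to below 1% (x axes). Each line is 1 mouse, coloured by group. All 12 lines rise in the left panel, and 11 of 12 in the right, where mouse 12 falls to 0%.

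The CDR3s of members and of smaller clonotypes had 13.59 ± 0.123 and 13.65 ± 0.0994 residues on average (n = 12). The difference of −0.0606 residues, lower in 8 of 12 mice, did not pass (exact sign-flip test, p = 0.0537). It passed with a minimum of 1 count, at −0.112 residues (exact test, p = 0.00195), under 3 other definitions of clonotypes or members, and when mouse 10, 11, 12 or 14 was left out (up to −0.0726 residues, p = 0.0215, exact test). It shrank to −0.0356 residues without mouse 16 (p = 0.107, exact test), and for members below 0.5% p was 0.314 (exact test). The most frequent lengths were 14 residues (488 members, 32.1%) and 13 residues (408 members, 26.9%).

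Some members resembled a larger clonotype of the same mouse. A total of 46 members had the CDR3 nucleotide sequence of a larger clonotype with another V or J assignment, and 75 others differed from that of a larger clonotype by 1 base, together 121 (7.97%). Their share was highest in mouse 12 with 10 of 27 members (37.0%) and lowest in mouse 16 with 4 of 106 (3.77%). Without them, the difference between the time-matched and the 9 other mice in percent changed more than 4-fold, the difference in sharing between mice and the absence of called segments remained on the same side of the threshold, while the difference of the TRAV7 family turned from 1.95 to −1.12 percentage points (exact test, adjusted p = 0.651). Neighbours by 1 base include CDR3s of the TRAV7-2 and TRAJ40 pair, such as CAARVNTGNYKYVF and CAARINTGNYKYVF, and whether a given neighbour was a separate clone or a misread copy was not tested.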

How the data were processed

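Receptor RNA of 24 tumors from 12 mice was sequenced with unique molecular identifiers, and 1 TCRα table per tumor was analysed. According to the study's methods, the authors made the tables with the Cogent NGS Immune Profiler. The deposited values are counts per receptor sequence. The methods name an analysis based on these identifiers, yet call the same totals reads, so the counts were not taken as molecules. The genome build is not given in the sources used here. TCRβ tables were not used.

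Sequences with a stop codon or fewer than 2 counts were left out, which removed up to 27.7% and 7.92% of the counts of a library. Exact permutation tests used 1 value per mouse, since replicates were separate mice, and members and smaller clonotypes were paired by mouse, because both came from the same animal. P-values were adjusted by Benjamini-Hochberg within a family, with a threshold of 0.05. Segments used by under 1% of all clonotypes were not tested. Capitals in the third set matched neither the start shared by at least 50% of the sequences of a V segment nor the end shared by those of a J segment. The members, lists and tests were chosen with earlier results of these data known. Clonotypes were named as the largest member, the largest in 1 tumor only and the largest in both with more than a 4-fold change of each mouse, the 10 that were members in the most mice (ties by summed share), and those beside the limits. Segments were named as those past the threshold or else the 5 with the largest difference. Alternatives changed the minimum count, clonotype definition, share window, depth (20 draws), fold limit, floor, comparator, segment filter, pairing and mice. Centring, a minimum of 10 counts in the other mouse and the 4 added tests were chosen after seeing the data. The tests were checked on simulated data. Python 3.11.15, numpy 2.4.6, pandas 2.3.3, scipy 1.17.1 and matplotlib 3.10.9 were used.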

Additional observations from a re-analysis of the deposited data

How the results depend on the processing

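The larger change with an interval between harvests and the sharing between mice kept their direction in every alternative run. Of the 10 segments named against smaller clonotypes, TRAV7, TRAJ15, TRAJ17 and TRAJ30 changed sign under some alternative and the others did not, and of the 9 differences between pairs of undosed and dosed groups 5 changed sign. The difference in percent changed more than 4-fold between the 9 mice and the time-matched mice ran from 63.97 to 69.47 percentage points with 1 mouse left out, and that in the median absolute log2 ratio from 3.471 to 3.848, and from 2.738 to 4.178 over the other alternatives. Both lost the call without mouse 6, 12 or 14, when 2 mice face 9 and the exact test cannot give a lower p than 0.01818. The first was 41.53 with centred ratios (adjusted p = 0.08182, exact test). The difference in percent found in both tumors was −42.08 with at least 5 counts and −41.15 after thinning, both then past the threshold, and ran from −42.38 to −34.56 with 1 mouse left out (adjusted p from 0.0303 to 0.2182, exact test). For members of 0.2% or more it was −30.67 (adjusted p = 0.1636, exact test). Centring reversed 3 comparisons of percent changed more than 4-fold, with −10.01 for DAC low minus time-separated, 6.235 for DAC high minus time-separated and 16.25 for DAC high minus DAC low. DAC low minus time-separated in percent found in both tumors was −0.364 for members of 0.2% or more and ran from −10.81 (without mouse 19) to 20.48, and in the median ratio from −0.3624 (without mouse 17) to 0.956. With 0.2% as the lower limit there were 60.75 members per mouse.

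TRAV families that passed numbered 2 with at least 5 counts, 1 for members below 0.5%, 3 against clonotypes of 0.01% to below 0.1%, 1 without the filter on rare segments, and 0 to 1 with 1 mouse left out (TRAV6 without mouse 12). TRAJ segments that passed numbered 2 against clonotypes of 0.01% to below 0.1%. Against those clonotypes TRAJ17 turned to 0.04991 and TRAJ30 to 0.1974 percentage points. TRAJ15 was −0.0002345 for members of 0.2% or more, −1.419 without members that resembled a larger clonotype, and −0.2171 (without mouse 12) to 1.278 with 1 mouse left out, and TRAV7 was −1.122 without such members. The difference in CDR3 length passed at −0.1118 residues with single counts kept, −0.07629 for nucleotide clonotypes, −0.07254 for amino acid sequences alone and −0.07768 without members that resembled a larger clonotype, and ran from −0.07257 to −0.0356 with 1 mouse left out. Without the replicate block, that is without pairing members and smaller clonotypes by mouse, 0 TRAV families and 0 TRAJ segments passed, the difference in length had p = 0.1971 (permutation test) and that in sharing stayed at 18.56 percentage points. The cause of these shifts was not tested.

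The depth limits what counts as absent, since 3 counts were 0.0113% in the shallowest library and 0.000354% in the deepest. A comparison of 3 against 3 mice cannot give an exact p under 0.1, so those between pairs of groups could not pass at any size of effect.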
